A study of Mus musculus with 12 samples.

Results

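The genes described here encode the proteins of the mitochondrial ribosome and were chosen by name: every mouse symbol made of Mrpl or Mrps, a number and at most 1 further letter. They number 77 of the 30323 genes of the table. RNA was sequenced from soleus, a hind-limb muscle rich in slow fibres. The mice were C57BL/6N males, 24 months old, housed singly and given wheels to run on for 8 weeks. High functioning (HF) and low functioning (LF) mice had been told apart by an accelerating rotarod. The 4 groups are HF laparotomy, HF control, LF laparotomy and LF control, with 3 libraries each, and muscle was taken 5 days after the abdominal surgery or at the matching time in controls. The labels name no allele or other agent, and they do not say what the controls underwent or that each library is a separate mouse, so the p-values speak only of the variation among these libraries, which may be technical. Replicate numbers name libraries and pair nothing. Levels are in TPM, transcript abundances that add up to one total in each library, and their depth is unknown, so no counting interval can be given.

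The mitochondrial ribosome translates the few proteins encoded in mitochondrial DNA, which are core subunits of the respiratory chain and of ATP synthase. All of its proteins are encoded in the nucleus, made in the cytosol and imported. Its large subunit forms the peptide bond and lies at the inner membrane, and its small subunit binds the mRNA and decodes it. Part of its proteins have counterparts in bacterial ribosomes, and the rest are found in mitochondria only. Oxidative muscle such as soleus is rich in mitochondria and depends on this machinery.

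By standard nomenclature 50 of the 77 genes belong to the large subunit and 26 to the small one. Mrps18a and Mrps30 are counted with the large subunit, where their proteins sit despite their names. Mrps36 was set apart because its protein is known as a component of 2-oxoglutarate dehydrogenase, an enzyme complex of the citric acid cycle. Of the large-subunit genes 29 have a bacterial counterpart and 21 are specific to mitochondria, against 16 and 10 of the small-subunit genes. The genes lie on 17 chromosomes, with 11 on chromosome 11 and 8 on chromosome 17. All 77 had a mean of at least 1 TPM, the limit for testing, which 10757 genes of the table met. The symbol Mrpl33 follows the naming rule too, but no gene of the table mapped to it, so it is not analysed here.

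These genes were abundant for their number. Their mean levels ran from 1.97 to 222 TPM with a median of 43.1 TPM, against a median of 7.60 TPM over all tested genes. Mrpl30, Mrpl14, Mrpl51 and Mrps21 led with means of 222, 210, 204 and 204 TPM over the 12 libraries, and those 4 held 21.4% of the summed TPM of the 77 genes. The fifth was Mrpl12, a protein of the stalk to which translation factors bind, at 104 TPM. The 10 most abundant held 35.6%. Within the stalk the levels were uneven: Mrpl10, its base, averaged 22.9 ± 2.92 TPM in HF and 28.9 ± 3.01 TPM in LF (SD, n = 6 each), and Mrpl11 averaged 15.9 ± 0.678 TPM in HF and 15.3 ± 1.82 TPM in LF. The ranges of Mrpl10 and Mrpl11 did not meet those of Mrpl12, which lay between 83.8 and 124 TPM in all 12 libraries.

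The lowest levels were those of Mrpl42, Mrpl23 and Mrpl57. Mrpl42 was listed at 0 in 1 library, HF control 3, and at up to 5.85 TPM in LF control 1. Mrpl23 had 2.03 TPM on average, while a near-identical gene outside the naming rule, Mrpl23-ps1, had 74.5 to 107 TPM. Reads of the pair can be shared, so the level of Mrpl23 is uncertain. The sum of both was 99.1 to 109 TPM in HF libraries, against 76.7 to 94.8 TPM in LF libraries, and these ranges did not overlap. Nor did those of Mrpl23-ps1 alone, 96.5 to 107 TPM in HF and 74.5 to 93.2 TPM in LF. Of all tested genes 1.77% had every HF library above every LF library. Mrpl23 alone overlapped, with 1.53 to 3.63 TPM in HF and 1.39 to 2.38 TPM in LF. It was not called for HF against LF averaged over treatments (limma adjusted p = 0.346). Mrpl57, specific to mitochondria, averaged 7.61 ± 0.987 TPM in HF and 6.54 ± 0.853 TPM in LF (SD, n = 6 each).

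The summed TPM of the 77 genes was close in all groups. It was 4052, 3913 and 3638 TPM in HF laparotomy, 4029, 4166 and 4247 in HF control, 3611, 3867 and 4428 in LF laparotomy, and 3813, 3521 and 3930 in LF control. The groups overlapped, and the highest library of all was LF laparotomy 3. HF over LF gave a ratio of 1.04 for all members, 1.03 for the large subunit and 1.05 for the small subunit. In bulk muscle fewer cells of a type and less RNA per cell cannot be told apart. With median-of-ratios size factors, which set the middle gene of each library level, the ratio of all members was 1.19. The summed large-subunit TPM divided by that of the small subunit stayed between 2.04 and 2.22 in every library, with a mean of 2.09 ± 0.0391 in HF and 2.12 ± 0.0584 in LF (SD, n = 6 each). Within groups these genes moved together: over the 12 libraries, after the group means were removed, the median pairwise correlation was r = 0.56 among the 77 genes, 0.56 between large- and small-subunit genes, 0.64 among nuclear genes of the respiratory chain, 0.35 among proteins of the cytosolic ribosome and 0.28 among all tested genes. Those pairs share the libraries and their TPM scaling.

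The first comparison asked how HF and LF soleus differ in these genes, averaged over the treatments. A few genes of both subunits, Mrpl52, Mrpl54, Mrps12, Mrps24, Mrps21, Mrps15 and Mrpl30, were higher in HF, by 0.33 to 0.64 on the log2 scale. A larger number were lower, led by Mrps31, Mrpl1, Mrpl19 and Mrps27, by 0.25 to 0.41. In numbers, 7 of the 77 rose in HF (9.09%) and 12 fell (15.6%), while 58 did not pass the test. Of all tested genes 6.03% were called higher and 35.3% lower, so the share called higher was near the background and the share called lower was less than that of all genes. Calls are at an adjusted p under 0.05 in limma, fitted over all tested genes on log2(TPM + 1).

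Differences are printed ± their standard error and with the median of all tested genes subtracted, which was -0.15 as deposited and 0.014 with size factors. Each adjusted p-value refers to the deposited values, before this subtraction. On the log2(TPM + 1) scale the median of the 77 differences was 0.17 above the median of all tested genes, and 60 of the 77 lay above it. The split of calls depended on the scaling, for these genes and for all genes. With size factors 40 of the 77 rose and 6 fell, against 19.9% of all tested genes called higher and 20.6% lower. With quantile normalization the counts were 41 and 6, against 18.8% and 22%. On TPM rescaled after leaving out mitochondrially encoded genes and the 10 most abundant ones they were 22 and 12, against 9.27% and 27.8%. All 7 genes that rose as deposited also rose under these 3 scalings. Of the 12 that fell, 6 also fell with size factors and 12 on rescaled TPM, and 0 turned to the other direction. Without LF laparotomy 3 the counts were 16 and 12 (748 and 3272 of all tested genes), and without the 3 libraries of high Myh4 (the fast myosin heavy chain; HF laparotomy 2, LF laparotomy 1 and LF control 3) they were 3 and 13 (356 and 3293). The call of Mrps15 was lost without HF laparotomy 2, HF control 1 or LF control 2.

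**Figure D1:**
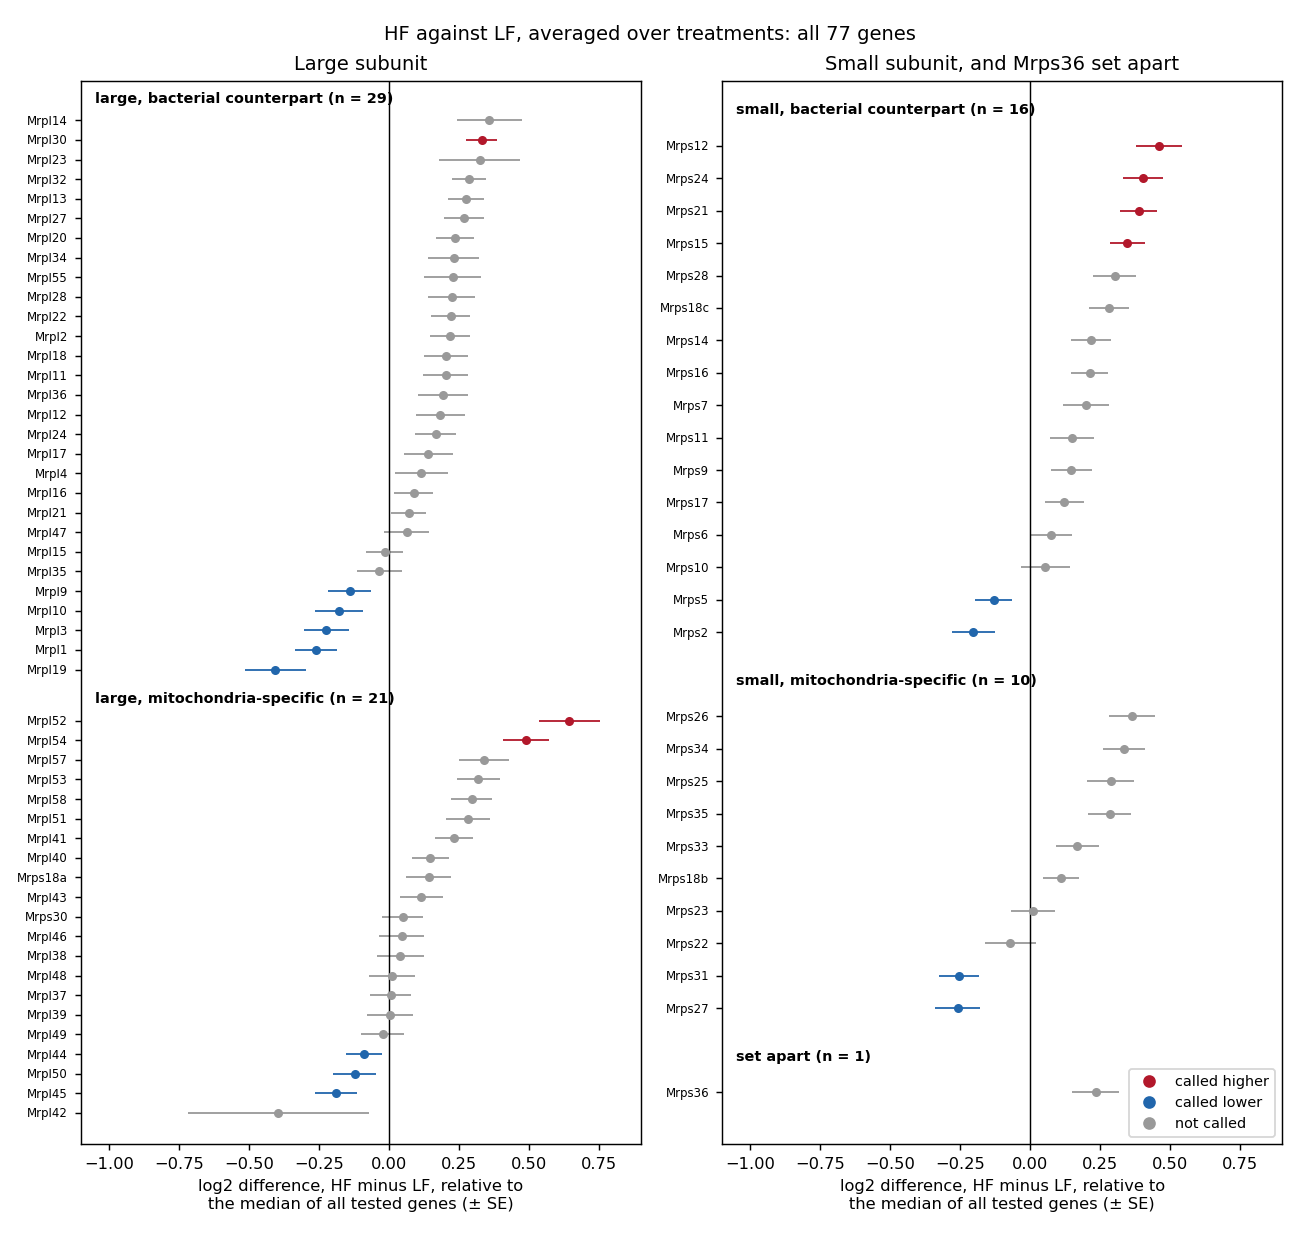
Log2 difference of HF minus LF soleus for all 77 genes, averaged over the treatments, with the median of all tested genes subtracted (horizontal axis), by subunit and class. Points are estimates, bars standard errors, and colours mark the limma calls: most points lie right of 0, and the 7 genes called higher reach from 0.33 to 0.64.

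The gene with the largest rise was Mrpl52, a large-subunit protein specific to mitochondria (GRCm38 chr14:54426909-54429756, plus strand). It had 69.1, 65.5 and 64.1 TPM in HF laparotomy and 66.6, 70.0 and 68.7 TPM in HF control. In LF laparotomy it had 47.3, 47.4 and 63.8 TPM, and in LF control 49.5, 32.4 and 49.3 TPM. The 6 HF libraries were all higher than the 6 LF libraries, and LF laparotomy 3 came close to the lowest HF library. The difference was 0.64 ± 0.11 (limma adjusted p = 0.00397). Mrpl54, also specific to mitochondria, had 90.8, 98.7 and 103 TPM as lowest, median and highest of the HF libraries, against 61.1, 77.03 and 97.4 TPM in LF. Only LF laparotomy 3 reached into the HF range, and Mrpl54 rose by 0.49 ± 0.082 (limma adjusted p = 0.0058).

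In HF 4 genes of the small subunit rose, each with a bacterial counterpart. Mrps12, a protein of the decoding centre, had 38.97, 41.9 and 42.8 TPM as lowest, median and highest in HF, against 29.0, 32.5 and 39.3 TPM in LF. The groups met only at their edges, and the difference was 0.46 ± 0.081 (limma adjusted p = 0.00902). Mrps21, the most abundant small-subunit gene, had 208, 220 and 236 TPM in HF, against 174, 185 and 201 TPM in LF, with no overlap. It rose by 0.39 ± 0.065 (limma adjusted p = 0.0115), and its near-identical copy Gm6181 averaged 0.043 TPM. Mrps24 had 53.2 to 61.7 TPM in HF, against 42.8 to 54.4 TPM in LF, and rose by 0.40 ± 0.071 (adjusted p = 0.0128). It overlaps exons of Urgcp on the same strand, so its value is uncertain. Mrps15 had 57.2 to 67.1 TPM in HF, against 49.6 to 57.2 TPM in LF, and rose by 0.35 ± 0.062 (adjusted p = 0.0217). In both genes the groups touched at LF laparotomy 3.

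The most abundant member, Mrpl30, a large-subunit protein with a bacterial counterpart, had 221, 237 and 250 TPM as lowest, median and highest in HF, against 203, 206 and 221 TPM in LF. The groups were side by side without overlap. It rose by 0.33 ± 0.054 (limma adjusted p = 0.017). Of the 5 most abundant genes, Mrpl14, Mrpl51 and Mrpl12 did not pass the test. Mrpl14 differed by 0.36 ± 0.12 (adjusted p = 0.161), with 155 TPM in LF control 2 and 272 TPM in LF laparotomy 3 at the ends of its range. Mrpl51 differed by 0.28 ± 0.078 (adjusted p = 0.185) and Mrpl12 by 0.18 ± 0.088 (adjusted p = 0.771). With size factors and on rescaled TPM Mrpl14 and Mrpl51 were called higher, and Mrpl12 was not.

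**Figure D2:**
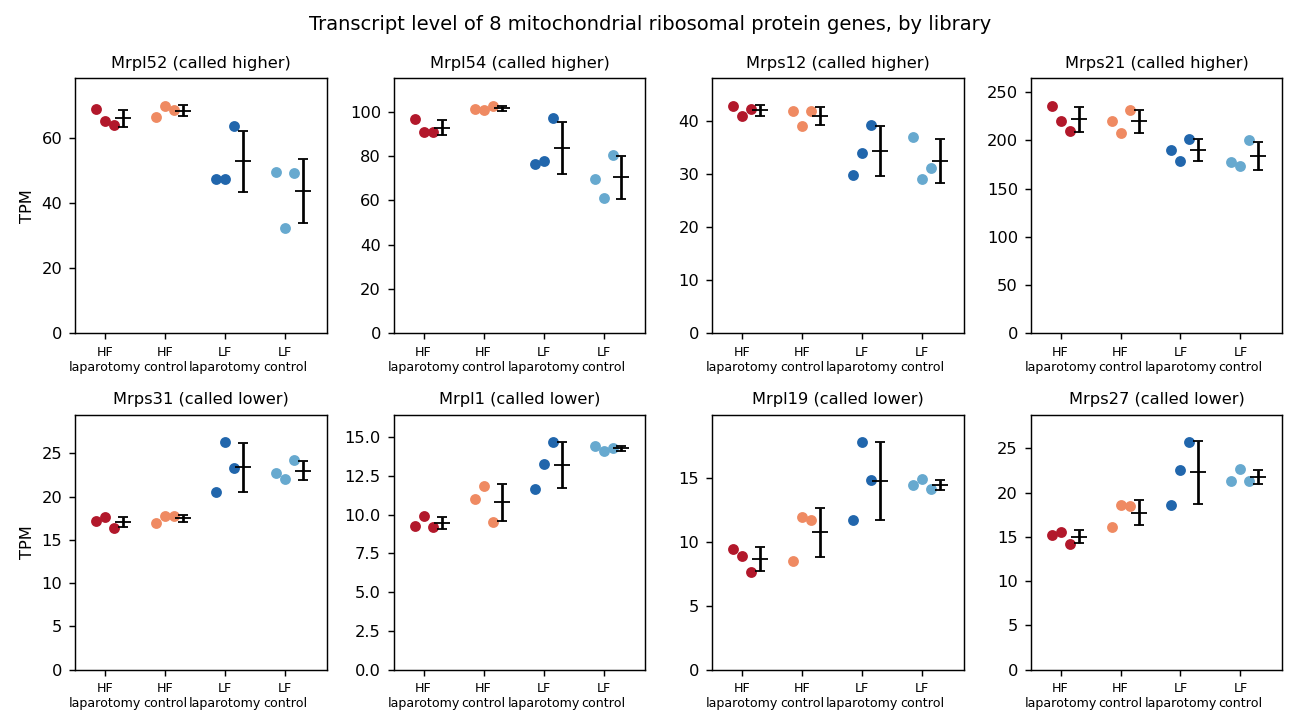
TPM (vertical axis, from 0) of 8 genes in each library, by group; points are libraries, and the bar beside them is the mean ± SD of 3. In the upper row the HF libraries of Mrpl52, Mrpl54, Mrps12 and Mrps21 lie above most or all LF libraries, and in the lower row those of Mrps31, Mrpl1, Mrpl19 and Mrps27 lie below most or all of them.

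Of the genes that fell, Mrps31, specific to the small mitochondrial subunit (GRCm38 chr8:22411361-22429665, plus strand), had the smallest p. It had 17.2, 17.6 and 16.4 TPM in HF laparotomy and 16.998, 17.7 and 17.8 TPM in HF control. In LF laparotomy it had 20.6, 26.2 and 23.4 TPM, and in LF control 22.7, 22.03 and 24.3 TPM. The HF libraries lay close together and all below the LF libraries. The difference was -0.25 ± 0.070 (limma adjusted p = 0.00127). Mrps27, a small-subunit protein with RNA-binding repeats, had 14.2, 15.8 and 18.58 TPM as lowest, median and highest in HF, against 18.65, 21.95 and 25.7 TPM in LF. These ranges came close without overlapping, and Mrps27 fell by 0.26 ± 0.081 (limma adjusted p = 0.00241).

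Among the large-subunit genes that fell, Mrpl19 had 7.63, 9.21 and 12.0 TPM as lowest, median and highest in HF, against 11.7, 14.6 and 17.8 TPM in LF. LF laparotomy 1 was its only LF library inside the HF range, and the difference was -0.41 ± 0.11 (limma adjusted p = 0.00215). Mrpl19 overlaps exons of Gcfc2 on the opposite strand, so its value is uncertain. Mrpl1, a protein of the mobile stalk where tRNAs leave, had 9.19, 9.71 and 11.8 TPM in HF, against 11.7, 14.2 and 14.7 TPM in LF, with LF laparotomy 1 just inside the HF range, and fell by 0.26 ± 0.076 (adjusted p = 0.00166). Mrpl3, which lies near the peptidyl transferase centre, had 24.9 to 31.7 TPM in HF, against 30.4 to 42.4 TPM in LF. It fell by 0.22 ± 0.081 (adjusted p = 0.00384). Mrpl45, which ties the ribosome to the inner membrane in mammals, had 22.2, 23.9 and 26.5 TPM in HF, against 26.8, 29.1 and 35.6 TPM in LF, with no overlap, and fell by 0.19 ± 0.074 (adjusted p = 0.00383).

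The other named falls were those of Mrps2 (-0.20 ± 0.075, adjusted p = 0.00343), Mrps5 (-0.13 ± 0.065, adjusted p = 0.00509), Mrpl10 (-0.18 ± 0.085, adjusted p = 0.00911) and Mrpl9 (-0.14 ± 0.077, adjusted p = 0.0106), all with bacterial counterparts. The remaining 2 of the 12, Mrpl50 and Mrpl44, are specific to mitochondria and were called outside the naming limit of 10, at -0.12 ± 0.077 and -0.09 ± 0.064. Mrpl44, whose protein resembles an RNase III enzyme, overlaps exons of Wdfy1 on the opposite strand. Mrps5 has a near-identical copy of 22.7% of its transcript, Gm13328, at 0.049 TPM. Of the 12, Mrps5, Mrpl9, Mrpl10, Mrpl44, Mrpl45 and Mrpl50 did not pass with size factors and were called lower on rescaled TPM. In TPM, all HF libraries lay above all LF libraries for 3 of the 77 genes (3.90%, against 1.77% of all tested genes), Mrpl30, Mrpl52 and Mrps21. All lay below for 4 (5.19%, against 9.31%), Mrpl45, Mrps5, Mrps27 and Mrps31.

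By subunit, 3 large-subunit genes rose and 8 fell out of 50, and 4 small-subunit genes rose and 4 fell out of 26. With size factors the counts were 23 and 3 for the large subunit and 16 and 3 for the small one. These counts stand against 6.03% of all tested genes called higher and 35.3% lower as deposited, and 19.9% and 20.6% with size factors. The medians relative to all genes were 0.15 for the large subunit and 0.18 for the small one. Among small-subunit genes with a bacterial counterpart 4 rose and 2 fell of 16, and among those specific to mitochondria 0 rose and 2 fell of 10 (with size factors 11 and 1, and 5 and 2). Among large-subunit genes the counts were 1 and 5 of 29 with a counterpart and 2 and 3 of 21 specific to mitochondria (15 and 3, and 8 and 0). No difference between these classes was tested.

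Mrps18a, Mrps18b, Mrps18c, Mrps30, Mrpl58 and Mrps36 did not pass the test. The paralogs Mrps18a, Mrps18b and Mrps18c averaged 95.8 ± 5.59, 46.1 ± 1.95 and 53.04 ± 3.67 TPM in HF, against 96.7 ± 13.3, 47.3 ± 3.39 and 48.3 ± 4.15 TPM in LF (SD, n = 6 each). Their differences relative to all genes were 0.14 ± 0.080, 0.11 ± 0.064 and 0.28 ± 0.073, with limma adjusted p between 0.158 and 0.967. Mrps30, a large-subunit protein, differed by 0.05 ± 0.072 (adjusted p = 0.288). Mrpl58, a peptidyl-tRNA hydrolase built into the large subunit, differed by 0.30 ± 0.073 (adjusted p = 0.117), and Mrps36 by 0.23 ± 0.083 (adjusted p = 0.425). With size factors Mrps18c, Mrpl58 and Mrps36 were called higher, while Mrps18a, Mrps18b and Mrps30 were not called. Mrps18c and Mrpl58 were called higher on rescaled TPM as well. In all, 18 of the 77 genes share exonic bases with another gene that was tested, 3 in the same orientation. In the annotation 17 have a near-identical copy, which can match only part of the transcript, down to 11.3% for Mrpl51. The one counted for Mrpl53, Gm42688, is a gene that overlaps it on the same strand.

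The genes that rose had shorter transcripts than those that fell. The median transcript length was 588.5 nt for the 7 that rose (418 to 937 nt), 1344 nt for the 12 that fell (718 to 3431 nt) and 816.5 nt for the other 58. Across the 77 genes the difference and the length had a Spearman correlation of -0.50, the difference and the GC content of 0.46 and the difference and the mean level of 0.50, all of which share the same libraries. Length moved with the difference over all tested genes too: in the shortest quartile the median difference was 0.081 and in the longest -0.093. The 77 genes are short, with a median of 849.5 nt against 1306.5 nt for all tested genes, and 35 of them fall in the shortest quartile. Within that quartile their median was 0.23 and in the second 0.12, against 0.054 for all genes of the second. In the third it was 0.0038 against -0.021, and the 4 genes in the longest quartile had -0.077.

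When the trend on length and GC content was taken out of each library, 28 of the 77 rose and 4 fell, against 16.9% of all tested genes called higher and 20.7% lower, with a median of 0.11 relative to all genes. The correlation with length was then -0.32. All 7 genes that rose as deposited also rose there, and of the 12 that fell, Mrpl3, Mrpl10, Mrpl19 and Mrps27 also fell. The part of length, GC content or RNA quality in these differences was not tested beyond this, and no measure of RNA integrity was used here.

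**Figure D3:**
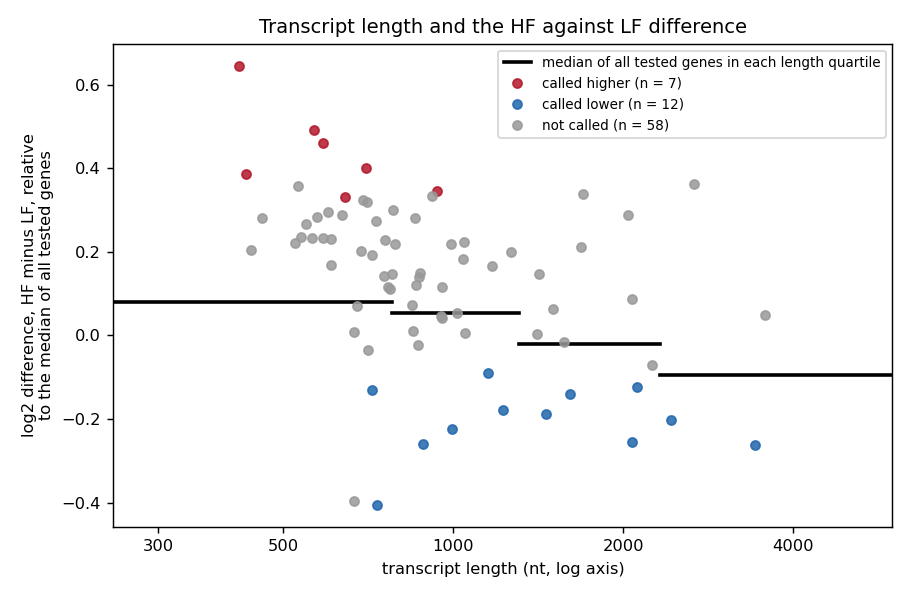
Transcript length in nt (log axis) against the log2 difference of HF minus LF relative to all tested genes (vertical axis) for the 77 genes, coloured by call, with black lines at the median of all tested genes in each quartile of length. Genes called higher are 418 to 937 nt long, and the differences fall with length from the shortest to the longest quartile.

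Promoters are shown for some genes at both ends of this comparison, because nuclear genes for mitochondrial proteins share binding motifs of a few transcription factors, among them NRF1, the ETS factor GABP, YY1 and the estrogen-related receptors. RefSeq (GRCm38.p6) gave windows of 250 bases before to 50 bases after the start for 68 of the 77 genes, in 74 windows. Capitals mark a match to CCGGAAG (ETS core), AAGATGGC (YY1 core), GCGCATGC (NRF1 core) or TCAAGGTCA (a half-site of estrogen-related receptors), searched on both strands, so that CTTCCGG and GCCATCTT are matches on the strand opposite to the gene. No 2 matches overlap in these windows, and each sequence is read 5′ to 3′ on the strand of its gene. The windows are chr14:54426659-54426958 (plus strand) for Mrpl52, chr7:28741772-28742071 (minus strand) for Mrps12, chr13:99344536-99344835 (plus strand) for Mrps27 and chr8:22411090-22411389 (plus strand) for Mrps31.
Mrpl52: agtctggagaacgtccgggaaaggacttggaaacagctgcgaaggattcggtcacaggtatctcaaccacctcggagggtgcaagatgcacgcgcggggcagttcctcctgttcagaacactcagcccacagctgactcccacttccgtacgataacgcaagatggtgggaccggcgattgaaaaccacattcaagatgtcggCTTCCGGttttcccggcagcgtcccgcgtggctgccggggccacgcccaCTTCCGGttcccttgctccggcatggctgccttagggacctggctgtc
Mrps12: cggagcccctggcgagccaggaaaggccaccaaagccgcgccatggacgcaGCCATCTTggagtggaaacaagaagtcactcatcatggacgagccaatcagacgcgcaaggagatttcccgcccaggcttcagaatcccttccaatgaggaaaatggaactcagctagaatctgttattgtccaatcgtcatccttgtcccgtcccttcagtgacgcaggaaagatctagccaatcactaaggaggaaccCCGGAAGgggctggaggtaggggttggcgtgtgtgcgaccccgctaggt
Mrps27: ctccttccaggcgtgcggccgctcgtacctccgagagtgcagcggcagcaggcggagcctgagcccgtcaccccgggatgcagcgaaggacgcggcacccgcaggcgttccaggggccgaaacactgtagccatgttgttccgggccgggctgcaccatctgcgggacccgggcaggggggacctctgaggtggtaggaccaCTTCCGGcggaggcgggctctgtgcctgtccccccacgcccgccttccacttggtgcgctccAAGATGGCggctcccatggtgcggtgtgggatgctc
Mrps31: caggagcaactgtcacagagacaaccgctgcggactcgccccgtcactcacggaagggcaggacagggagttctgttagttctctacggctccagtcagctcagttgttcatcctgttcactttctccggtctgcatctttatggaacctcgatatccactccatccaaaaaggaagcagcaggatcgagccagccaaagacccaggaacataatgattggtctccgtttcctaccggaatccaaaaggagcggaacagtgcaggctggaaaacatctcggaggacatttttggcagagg
Mrpl52 and Mrps12, which rose, hold an ETS core, and so does Mrps27, which fell and also holds a YY1 core, while Mrps31 holds no match to these letters. Mrps12 holds a YY1 core too. The windows of Mrps21, which rose, and Mrpl1, which fell, were read as well and are not printed. Mrps21 holds an ETS core, and Mrpl1 holds no match.

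The ETS core stood in 25 of the 74 windows (33.8%), against 18.1% of the promoter windows of tested genes and 8.86% of all windows. The YY1 core stood in 12 (16.2%), against 4.66% and 2.75%. The NRF1 core stood in 7 (9.46%), against 5.34% and 2.71%, and the receptor half-site in 0, against 0.262% and 0.423%. By direction, the ETS core stood in 3 of 6 windows of genes that rose and in 2 of 11 of genes that fell, the YY1 core in 2 and 1, the NRF1 core in 0 and 2, and the half-site in 0 and 0. These are matches of letters in a window only.

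The difference between HF and LF was then read within each treatment. In controls, Mrpl54 (0.64 ± 0.12, limma adjusted p = 0.0219) and Mrpl52 (0.77 ± 0.16, adjusted p = 0.0264) rose. Mrps31 (-0.27 ± 0.099, adjusted p = 0.0359) and Mrpl1 (-0.27 ± 0.11, adjusted p = 0.0434) fell. These are 2.60% of the 77 in each direction, against 2.44% of all tested genes called higher and 8.04% called lower. The median of the 77 was 0.21 above that of all genes. The calls depended on single libraries, for these genes and for all genes. Without HF control 1, HF control 3 or LF control 2 they were 0 in both directions among the 77. Of all tested genes 25, 35 and 0 were then higher and 22, 31 and 2 lower. Without LF laparotomy 1 the calls among the 77 were 10 higher and 4 lower (394 and 1686 of all tested genes). Without LF laparotomy 3 they were 11 and 2 (462 and 1592). Without HF laparotomy 1, HF laparotomy 2, LF control 1 or LF control 3 none of the 77 fell (612, 422, 522 and 18 of all tested genes). Without HF laparotomy 3 or LF laparotomy 2 there was 1 lower (653 and 595). Without LF control 3 there was 1 higher (30), and without HF control 2 there were 3 lower (1144). With size factors 23 rose and 1 fell, against 9.05% of all tested genes higher and 8.92% lower.

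After laparotomy 0 of the 77 rose and 10 fell (12.99%), against 1.5% of all tested genes higher and 24.5% lower in limma. Of the 77, 19 had an unadjusted p under 0.05. Mrps27 fell by 0.34 ± 0.12 (adjusted p = 0.00936), Mrpl19 by 0.50 ± 0.15 (adjusted p = 0.00986) and Mrpl45 by 0.27 ± 0.10 (adjusted p = 0.0101). The median of the 77 was 0.13 above that of all genes, and it was 0.066 without HF laparotomy 1, 0.091 without HF laparotomy 2, 0.21 without HF laparotomy 3 and -0.039 with no filter on low values. With size factors 15 rose and 3 fell, against 9.31% of all tested genes higher and 10.7% lower. The count of falls was 21 without LF laparotomy 1, 5 without LF laparotomy 2 and 6 without HF laparotomy 1, HF laparotomy 2 or LF laparotomy 3. Of all 10757 tested genes 3983, 994, 972, 1018 and 1003 fell in those fits, in that order. Without LF laparotomy 3, 1 of the 77 rose, against 141 of all tested genes. Whether the HF and LF difference itself changed with laparotomy is the interaction given next.

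The study also asked how laparotomy changes the soleus. No gene of the mitochondrial ribosome passed the test, in LF, in HF, averaged over both or in their interaction. Of all tested genes 0% were called higher and 0% lower in each of these limma contrasts. At an unadjusted p under 0.05 there were 2 of the 77 genes in LF, 0 in HF, 0 averaged and 3 in the interaction, against 291, 665, 747 and 331 of all 10757 genes. The count of members called was 0 under every scaling, filter, weighting and left-out library tried as well. The medians of the 77 relative to all genes were 0.067 in LF, 0.015 in HF, 0.032 averaged and -0.065 for the interaction. Single libraries moved them: without HF laparotomy 1 the medians were -0.045 in HF, -0.0034 averaged and -0.13 for the interaction, and without HF laparotomy 3 they were 0.076, 0.084 and 0.0028. In HF the median was also negative without HF laparotomy 2 (-0.014), without HF control 2 (-0.036) and with no filter on low values (-0.070), which gave -0.022 averaged. Leaving out any 1 library gave 0.054 to 0.084 in LF. A missed threshold with 3 libraries a group does not show that laparotomy left these genes as they were.

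The genes with the smallest p in LF were Mrps34, Mrps7 and Mrpl54. Mrps34, a small-subunit protein specific to mitochondria, had 53.5, 53.97 and 64.6 TPM in LF laparotomy, against 50.4, 41.9 and 52.03 TPM in LF control. The laparotomy libraries all lay above the controls. The difference was 0.28 ± 0.11 (limma adjusted p = 0.9995). Mrps34 overlaps exons of Nme3 on the same strand. Mrps7, whose bacterial counterpart joins the small subunit early in assembly, differed by 0.30 ± 0.12 and Mrpl54 by 0.28 ± 0.12, both at a limma adjusted p of 0.9995. In HF the smallest p were those of Mrpl43 (-0.11 ± 0.11), Mrps17 (-0.09 ± 0.10) and Mrpl40 (-0.08 ± 0.094), with a limma adjusted p of 0.655. Averaged over both, Mrpl44, Mrpl40 and Mrpl57 came first at -0.06 ± 0.064, -0.05 ± 0.067 and -0.09 ± 0.090 (limma adjusted p = 0.683).

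In the interaction, Mrps28, Mrpl12 and Mrpl54 had the smallest p, at -0.28 ± 0.15, -0.32 ± 0.18 and -0.29 ± 0.16 (limma adjusted p = 0.9998). Mrpl12 had 106, 97.7 and 83.8 TPM in HF laparotomy and 106, 113 and 123 TPM in HF control. In LF laparotomy it had 92.3, 109 and 124 TPM, and in LF control 104, 87.9 and 96.6 TPM. The groups overlapped in LF, and in HF both treatments held a library at 106 TPM.

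Other genes needed for mitochondrial translation were read from lists, with their counts for HF against LF averaged over the treatments. All counts of lists stand against the shares of all tested genes given above, 6.03% higher and 35.3% lower as deposited, and 19.9% and 20.6% with size factors. Of 10 mitochondrial translation factors 0 rose and 8 fell (with size factors 0 and 5), and their median was -0.17 relative to all genes. Their summed level was 196 to 237 TPM in HF libraries, against 236 to 299 TPM in LF libraries, which barely overlapped. Gfm1, an elongation factor that moves the ribosome along the mRNA, fell by 0.40 ± 0.090 (limma adjusted p = 0.00098), and the initiation factors Mtif2 and Mtif3 fell by 0.39 ± 0.091 and 0.33 ± 0.089. Of 17 mitochondrial aminoacyl-tRNA synthetases, which charge the tRNAs, 0 rose and 8 fell (0 and 6), with a median of -0.10. Lars2 (-1.01 ± 0.10), Iars2 (-0.33 ± 0.084) and Mars2 (-0.20 ± 0.074), for leucine, isoleucine and methionine, had the smallest p.

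Of 24 genes for ribosome assembly and rRNA modification 0 rose and 7 fell (29.2%; with size factors 5 and 4), with a median of -0.012, so the share that fell was less than that of all genes. The rRNA or tRNA methyltransferase genes Mettl15 (-0.38 ± 0.076), Trmt2b (-0.37 ± 0.084) and Nsun4 (-0.27 ± 0.077) had the smallest p. Of 4 genes for mRNA stability, activation and membrane insertion 0 rose and 3 fell (1 and 2). Taco1, a translational activator of cytochrome oxidase subunit 1, fell by 1.04 ± 0.14 (limma adjusted p = 0.00031). Lrpprc, which stabilises mitochondrial mRNA, fell by 0.52 ± 0.11. Oxa1l, the membrane insertase, was called lower on the deposited values. Relative to all genes it was lower by 0.07 ± 0.079, less than its standard error. Of 8 genes for transcription and upkeep of mitochondrial DNA 1 rose and 4 fell (2 and 2). Polrmt, the mitochondrial RNA polymerase, rose by 0.67 ± 0.10, while Tfam, which packs the DNA, fell by 0.30 ± 0.080 and the transcription factor Tfb2m by 0.21 ± 0.078. Of 5 mitoribosomal genes with other names 1 rose and 1 fell (with size factors 4 and 1), with a median of 0.25. Gadd45gip1 rose by 0.43 ± 0.088 and Ptcd3 fell by 0.67 ± 0.090.

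**Figure D4:**
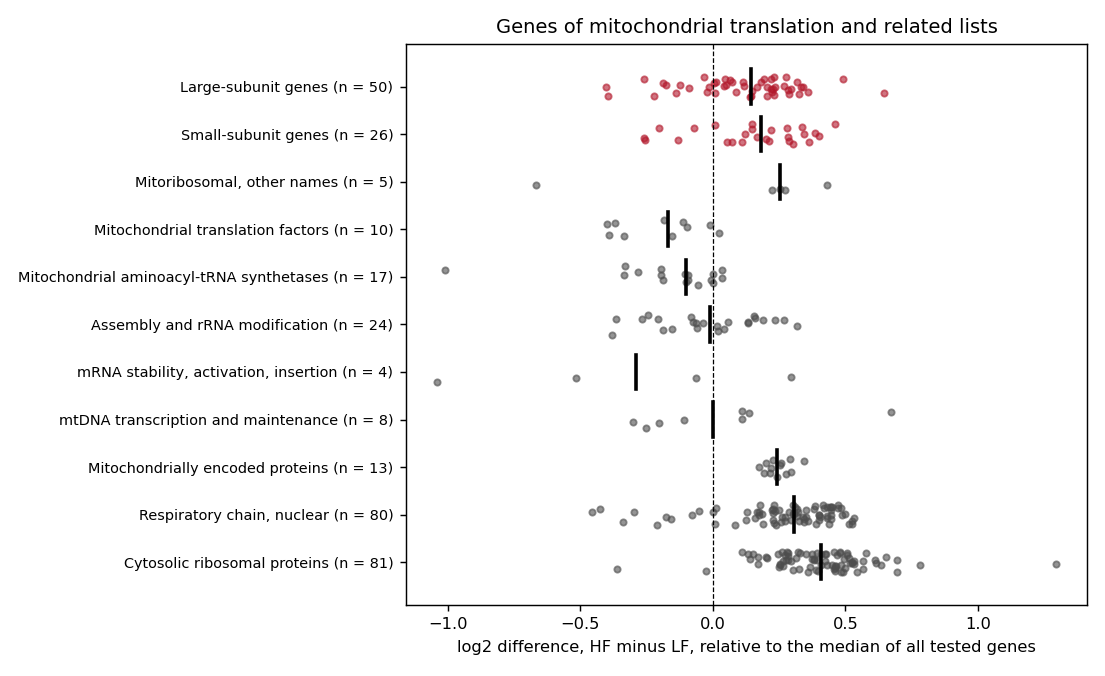
Log2 difference of HF minus LF relative to all tested genes (horizontal axis) for each gene of 11 lists, with the list median as a black bar; large- and small-subunit genes of the mitochondrial ribosome are in red. The medians are 0.15 and 0.18 for the subunits, -0.17 for translation factors, 0.31 for nuclear respiratory chain genes and 0.41 for cytosolic ribosomal proteins.

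Counts for other parts of the respiratory chain and for the cytosolic ribosome were taken in the same way. Of 80 tested nuclear genes of the respiratory chain 31 rose and 7 fell (60 and 4 under size factors), and the list median was 0.31. The smallest p were those of genes that fell, Uqcrc2 (-0.43 ± 0.073), Sdha (-0.45 ± 0.096) and Ndufs1 (-0.30 ± 0.080). Of 81 tested proteins of the cytosolic ribosome 52 rose and 1 fell (74 and 0), and the median was 0.41. The smallest p were those of Rps20 (0.70 ± 0.066), Rpl28 (0.78 ± 0.082) and Rps29 (0.61 ± 0.061). Those genes have many near-identical copies, so their values are uncertain. The 13 mitochondrially encoded proteins, the products of the mitochondrial ribosome, had a median of 0.24 with 0 called in limma and 0 with an unadjusted p under 0.05. With size factors 1 of them rose. Median transcript lengths were 607.5 nt in the respiratory chain list and 637 nt in the cytosolic list, against 1321.5 nt for translation factors and 1470 nt for the synthetases. After removal of the length and GC trend the counts were 44 and 6 for the respiratory chain, 71 and 1 for the cytosolic ribosome, 0 and 6 for translation factors and 0 and 8 for the synthetases, against the 16.9% and 20.7% of all tested genes. No difference between lists was tested.

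Some markers of other cell types moved with function in these libraries, with counts to be read against 6.03% of all tested genes higher and 35.3% lower. All 10 endothelial markers were tested and 4 rose in HF, with a summed level of 374 to 528 TPM in HF libraries, against 308 to 383 TPM in LF libraries. All 7 Schwann cell markers were tested and 3 rose, with 79.8 to 254 TPM in HF, the top in HF laparotomy 3, against 65.1 to 79.8 TPM in LF. Macrophage markers, 7 of 9 tested, and adipocyte markers, 4 of 6 tested, had 0 called in limma and 0 with an unadjusted p under 0.05, with 17.6 to 52.7 TPM in HF, against 16.2 to 45.6 TPM in LF, for macrophages and 4.22 to 85.1 TPM in HF, against 12.5 to 26.8 TPM in LF, for adipocytes. The adipocyte marker Plin1 was listed at 0, and Pax7 and Myf5 of satellite cells averaged under 1 TPM. Slow-fibre markers were present throughout at 42283 to 53043 TPM in HF and 35590 to 46760 TPM in LF, and 2 of 8 rose and 1 fell. Of 10 fast-fibre markers 0 rose and 2 fell, Myh2 (-0.80 ± 0.12) and Mylpf (-0.22 ± 0.14). Of 5 red blood cell markers 0 were called, of 6 fibroadipogenic markers 1 rose, and 1 of 4 satellite cell markers was tested and did not pass. With size factors 5 slow-fibre markers rose and 0 fell, and 0 fast-fibre markers rose and 1 fell. Of the endothelial markers 5 then rose, and of the Schwann cell markers 6. These counts stand against 19.9% of all tested genes higher and 20.6% lower. The part of cell makeup in the differences above was not tested.

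**Figure D5:**
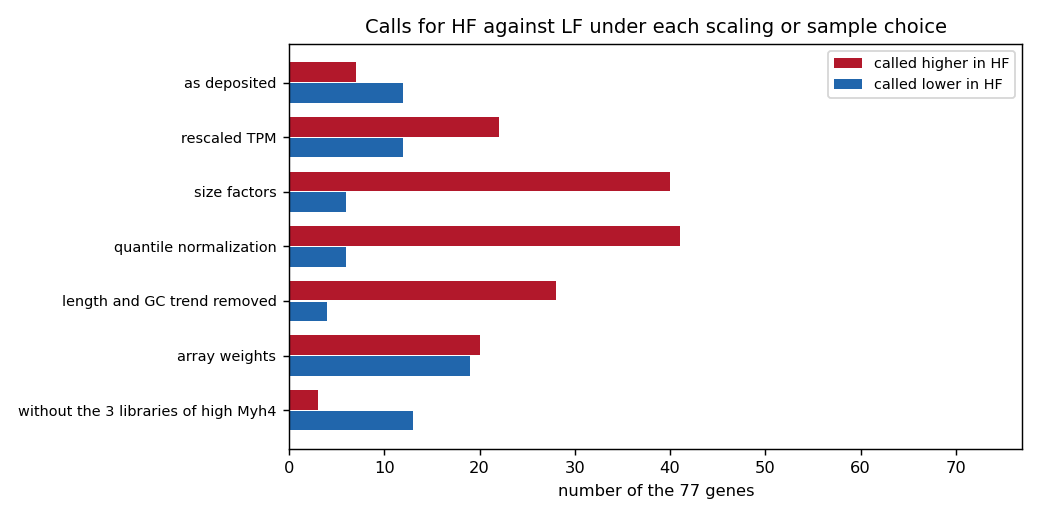
Number of the 77 genes (horizontal axis) called higher or lower in HF than in LF, averaged over treatments, with the deposited TPM and under 6 other choices. As deposited 7 were higher and 12 lower, with size factors 40 and 6.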

How the data were processed

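Gene-level TPM of 12 soleus libraries were used as deposited. The submitters' processing notes name kallisto, DESeq2 and the GRCm38 build, without roles or versions. Per the labels' protocols, total RNA went through a polyA pull-down and a stranded Illumina kit. The sources used here state neither the strand setting nor the depth nor a batch. Over the table, TPM summed to 956473 to 962830 in a library. GENCODE M21 (GRCm38) supplied a symbol for 29857 IDs, and coordinates, lengths and GC content.

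A gene was tested if its mean reached 1 TPM (10757 genes). The test was limma (version 3.58.1, R 4.3.3) on log2(TPM + 1), with a trend of variance on level, a mean for each of the 4 groups, 8 residual degrees of freedom and p-values for both directions. The Benjamini-Hochberg adjustment ran over the tested genes in each of the 7 contrasts, and a call needed an adjusted p under 0.05. The pseudocount understates changes of low genes. The steps were tested on simulated data.

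Named were up to 10 called genes per direction by smallest p for HF against LF averaged, up to 3 elsewhere (or the 3 smallest p), the 5 highest and 3 lowest genes, 11 genes chosen for their place in the ribosome and up to 3 called genes of each other list. Genes named beyond this to complete a count were chosen after their values were seen. The members, lists and rule were chosen with earlier results of these data known. Near-identical copies were searched at 95% identity. A match had to cover at least 10% of the member's longest coding transcript. It also had to cover at least 50% of that transcript or 80% of the copy. The alternatives were 2 other pseudocounts, 2 other filters, 3 scalings, array weights, a fit of the compared groups alone, a fit with length and GC trends taken out, a fit without the libraries of high Myh4 and leaving out each library in turn.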

Additional observations from a re-analysis of the deposited data

Results flagged for a closer look

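Mrpl32, a large-subunit gene with a bacterial counterpart, was the only one of the 77 genes whose libraries moved fully apart in opposite directions after laparotomy in HF and in LF. In HF it had 26.1, 25.1 and 27.79 TPM after laparotomy, against 28.3, 29.1 and 27.83 TPM in controls, a log2 difference as deposited of -0.11. In LF it had 24.2, 27.4 and 26.4 TPM after laparotomy, against 23.6, 23.2 and 23.9 TPM in controls, a difference of 0.14. The HF effect minus the LF effect was -0.24. The interaction did not pass the test (limma adjusted p = 0.9998, unadjusted p = 0.0701). How many of all tested genes moved apart in this way was not counted, so the pattern of Mrpl32 is a description only.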

How the results depend on the processing

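No paired analysis was possible because replicate numbers are given in accession order only. For HF against LF averaged over treatments (7 genes higher, 12 lower), calls higher were 40 with size factors, 41 with quantile normalization, 22 on rescaled TPM, 20 with array weights, 28 after removal of the length and GC trend and 3 without the 3 libraries of high Myh4. Calls lower were 6, 6, 12, 19, 4 and 13. Of all tested genes, calls higher in that order were 2146, 2020, 1104, 1275, 1804 and 356, and calls lower 2211, 2368, 3312, 4989, 2208 and 3293. These fits tested 10757 genes, except 11910 on rescaled TPM and 10686 after removal of the trend. Leaving out each library gave 6 to 16 higher and 12 to 18 lower (460 to 748 and 3059 to 4475 of all tested genes). In controls (2 higher, 2 lower), calls higher in the same order were 23, 22, 13, 13, 11 and 1, and calls lower 1, 1, 4, 10, 0 and 0. Of all tested genes 974, 943, 447, 664, 621 and 46 were then higher and 960, 1139, 1704, 2463, 838 and 117 lower. No filter on low values gave 0 and 0 (63 and 58 of 22738 genes), and a mean of at least 5 TPM gave 6 higher (270 of 6657). Leaving out each library gave 0 to 11 higher and 0 to 4 lower (0 to 462 and 2 to 1686 of all tested genes). After laparotomy (0 higher, 10 lower), calls higher were 15, 16, 7, 8, 9 and 0 and calls lower 3, 2, 6, 23, 3 and 11. Of all tested genes 1001, 949, 435, 931, 760 and 72 were then higher and 1154, 1238, 1364, 5105, 1215 and 2579 lower. A fit of the compared groups alone gave 4 lower (1293 of all tested genes). Leaving out each library gave 0 to 1 higher and 5 to 21 lower (54 to 174 and 972 to 3983 of all tested genes). Without a filter, the median of the genes relative to all genes was 0.029 averaged, 0.10 in controls and -0.039 after laparotomy, because the median of all genes then includes 22738 genes, many near 0 TPM. The HF over LF ratio of summed TPM was 1.19 for all genes with size factors (large subunit 1.19, small subunit 1.20) and 1.09 on rescaled TPM. The cause of the other changes was not tested. Pseudocounts of 0.5 and 0.1 gave the same counts. Of the 7 and 12 calls, 6 and 12 held without each library and 3 and 3 in all 22 alternatives (Mrpl52, Mrpl54, Mrps21; Mrpl3, Mrpl19, Mrps27). Unknown depth leaves low genes, such as Mrpl42, without a counting error.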
